A study of Homo sapiens and Mus musculus with 81 samples.

Results

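The 9 genes followed here act in hepatic glucose production and its hormonal control: PCK1, G6PC, FBP1, PPARGC1A, TAT, PKLR, IGFBP1, IRS2 and GYS2. They were chosen by name, as every probe set whose gene symbol is on that list, without regard to case for mouse, and each gene was read from its brightest probe set in the arrays of each comparison. All 9 were found on both array designs, through 11 human and 12 mouse probe sets, among 17836 named human genes and 21931 named mouse genes. G6PC carries the current human symbol G6PC1. Messenger RNA was measured on 81 one-colour oligonucleotide arrays, 56 with a human and 25 with a mouse design. The human arrays covered HUH7 and PLC/PRF/5, established liver cancer lines, and the mouse arrays covered the hepatoma line Hepa1-6 and whole liver. The cell lines were grown in 6-well plates and received siRNA at 10 nM with Lipofectamine RNAiMAX, or were mock transfected. HUH7 had 8 treatments (mock, 4 siRNAs named APOB-Hs1 to APOB-Hs4, 2 named Apob-Mm1 and Apob-Mm2, and 1 against RAD18) at 6, 12, 24 and 48 h, which made 32 arrays. PLC/PRF/5 had the same 8 treatments at 6, 12 and 48 h, which made 24 arrays. Hepa1-6 had mock, APOB-Hs1, APOB-Hs3 and APOB-Hs4 at 6, 12, 24 and 48 h, which made 16 arrays. The remaining 9 arrays were whole livers of mice given 3 mg/kg of APOB-Hs1, APOB-Hs3 or APOB-Hs4 in lipid nanoparticles and taken after 3 d, with 3 livers per siRNA and no untreated liver among the samples. The sources used here do not give the strain, age or feeding state of the mice.

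Gluconeogenesis is the synthesis of glucose from lactate, glycerol and amino acids, and in the fasted animal it takes place mainly in the liver. PCK1, FBP1 and G6PC encode its controlled enzymes, which bypass the irreversible steps of glycolysis, while PKLR encodes the liver pyruvate kinase that runs the opposite way and GYS2 the liver glycogen synthase that stores glucose after a meal. Glucagon and glucocorticoids raise the gluconeogenic genes, in part through the coactivator encoded by PPARGC1A, and TAT, tyrosine aminotransferase, is a classical glucocorticoid-induced gene of hepatocytes. Insulin lowers them through receptor substrates such as IRS2, and IGFBP1, a secreted binding protein of insulin-like growth factors, and IRS2 itself are among the genes that insulin represses through forkhead factors.

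RefSeq promoters (build GRCh38.p14) were given for G6PC1, FBP1, PPARGC1A, PKLR and IRS2, and those for PCK1, TAT, IGFBP1 and GYS2 were not used here. The 250 bases before each start were searched on both strands for TGACG, the core that cAMP-responsive factors bind, for GTAAACA, a forkhead core, for CAAAACA, an insulin response core, and for the palindrome TTACGTAA. The last 200 bases before the start are printed for the 3 genes with a match, because PPARGC1A and IRS2 changed over time in HUH7 and G6PC1 separated the human lines. The matches are in capitals. They lie at chr4:24472906-24473105 (minus strand) for PPARGC1A, chr13:109786584-109786783 (minus strand) for IRS2 and chr17:42900599-42900798 (plus strand) for G6PC1.
PPARGC1A: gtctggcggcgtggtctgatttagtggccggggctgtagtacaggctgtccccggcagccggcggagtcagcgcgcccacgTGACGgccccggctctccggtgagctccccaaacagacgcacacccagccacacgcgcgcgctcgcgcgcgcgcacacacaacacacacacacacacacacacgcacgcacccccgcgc
IRS2: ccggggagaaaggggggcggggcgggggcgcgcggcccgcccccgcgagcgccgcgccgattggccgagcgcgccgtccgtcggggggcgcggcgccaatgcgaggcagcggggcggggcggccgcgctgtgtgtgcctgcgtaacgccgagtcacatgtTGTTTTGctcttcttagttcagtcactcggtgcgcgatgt
G6PC1: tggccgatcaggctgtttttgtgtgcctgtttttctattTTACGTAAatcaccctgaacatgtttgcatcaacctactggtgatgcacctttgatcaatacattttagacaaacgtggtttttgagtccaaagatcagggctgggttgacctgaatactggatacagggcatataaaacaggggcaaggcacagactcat
In PPARGC1A the capitals mark TGACG, 119 bases before the start, a string held by 21.7% of 27305 promoters of that length. The other PPARGC1A start, whose 250 bases lie at chr4:23881102-23881351, had none. Which start these cells used was not tested. In IRS2 the capitals mark TGTTTTG, the reverse complement of CAAAACA, 40 bases before the start, found in 4.3% of promoters. In G6PC1 they mark TTACGTAA, 161 bases before the start, found in 0.1%. This palindrome was added to the search after the G6PC1 promoter had been read, so its match there was known beforehand. GTAAACA, held by 3.0% of promoters, was in none of these windows, and FBP1 and both PKLR starts held no match. The matches do not overlap and describe letters only.

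The APOB-Hs siRNAs lowered APOB in the cell lines given them, and the RAD18 siRNA lowered RAD18. APOB, which encodes the structural protein of low density lipoproteins, was lower than mock with APOB-Hs1 to APOB-Hs4 by log2 differences of -2.51 to -1.69 in HUH7 and -3.27 to -2.54 in PLC/PRF/5, all past the test. In Hepa1-6, given APOB-Hs1, APOB-Hs3 and APOB-Hs4, the differences were -2.64 to -2.32 and also passed. With Apob-Mm1 and Apob-Mm2 APOB did not pass it in either human line (lowest adjusted p = 0.102), with differences from -2.44 to -0.81. APOB was still below mock with both, at unadjusted limma p-values from 8.72e-06 to 0.00459. No gene at all passed with Apob-Mm1 in either human line, so these siRNAs are not read as sparing APOB. For RAD18 itself the differences were -1.98 (HUH7) and -3.25 (PLC/PRF/5). In liver, where each siRNA could be set only against the other siRNAs, Apob did not pass the test for any (0.13, 0.44 and -0.57). Of the hepatocyte marker list, 9 of 10 genes lay above the array's median gene in HUH7 and PLC/PRF/5, 8 of 8 in liver and only 3 of 8 in Hepa1-6. Residual spread was widest on 4 arrays: APOB-Hs2 and APOB-Hs4 of PLC/PRF/5 at 48 h, the 12 h array of APOB-Hs1 in HUH7, and the first APOB-Hs4 liver. They were picked by their residuals in these same fits, so leaving them out narrows the residual spread by construction. Calls gained without them are therefore not independent support. Each treatment had 1 array per time, so that in the cell lines the times stand in for replicates, and nothing says that arrays came from separate cultures. Within the cell lines the p-values therefore measure the spread left after treatment and time, which may be technical. That spread also holds any siRNA effect that changed with time. In liver they measure the spread between the 3 livers of an siRNA.

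The human lines differed widely in the levels of these genes. Values are log2 of the RMA intensity, and they can be compared for 1 gene across arrays but not between genes. G6PC, which releases free glucose in the last step, lay between 2.82 and 3.51 in HUH7 (median 3.07) and between 6.06 and 7.64 in PLC/PRF/5 (median 6.63). IGFBP1 lay between 3.67 and 5.53 in HUH7 (median 4.16) and between 7.51 and 10.79 in PLC/PRF/5 (median 9.87). Neither gene's ranges overlapped between the lines. Averaged over treatments and times, HUH7 minus PLC/PRF/5 was -3.65 for G6PC (SE 0.067, limma adjusted p = 4.66e-33) and -5.43 for IGFBP1 (SE 0.065, 7.60e-39). PPARGC1A (-1.54), IRS2 (-1.59), PKLR (-1.03) and PCK1 (-1.10) were also lower in HUH7. FBP1, fructose-1,6-bisphosphatase, was higher there (0.96), as was TAT (0.83). GYS2 differed by 0.08 (SE 0.051, adjusted p = 0.143), and its arrays covered the same span in both lines, 2.66 to 3.31 and 2.63 to 3.31. In all, 8 of 9 genes passed the test, and so did 85.3% of all genes.

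Some of these levels were low on their arrays. No detection calls were used, so a difference from a low level, such as that of G6PC, is one of signals and is read as a lower bound on its size. On the HUH7 arrays GYS2 lay between the 4.2 and 19.4 percentiles of all genes, G6PC between 8.2 and 23.7, and IGFBP1 between 27.5 and 56.7. GYS2 was also low on the PLC/PRF/5 arrays (3.4 to 18.7), so its small difference is not read as equal expression. PCK1, phosphoenolpyruvate carboxykinase, was read from different probe sets in the lines: it lay between 3.99 and 4.70 in HUH7 (median 4.42) and between 5.59 and 8.41 in PLC/PRF/5 (median 6.20). On the probe set used for the difference above it was -1.10, and on the other it was -3.28, so the probe sets shared a direction but not a size. IRS2 likewise differed by -0.75 on its other probe set.

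**Figure D1:**
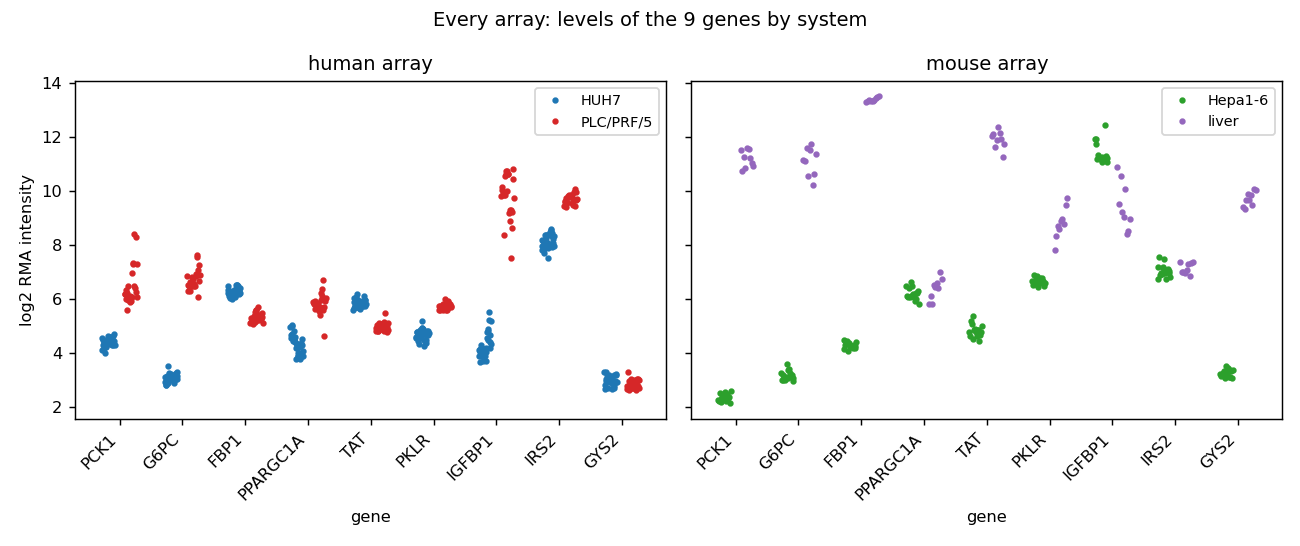
Log2 RMA intensity of each gene (vertical axis) on every array, with human arrays on the left and mouse arrays on the right; each point is 1 array. G6PC and IGFBP1 separate HUH7 from PLC/PRF/5, with G6PC at most 3.51 in HUH7 and at least 6.06 in PLC/PRF/5, while PCK1, FBP1, TAT and GYS2 separate liver from Hepa1-6.

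The main question of the design, for these genes, was which siRNAs changed them against mock. A single gene did so. IGFBP1 was lower with APOB-Hs2 than with mock in both human lines, though in HUH7 it did not pass against the RAD18 siRNA, and none of the other 62 combinations of gene and siRNA passed the test in HUH7 or in PLC/PRF/5. That is 1 of 63 in each line, beside 1.57% of all genes and siRNAs in HUH7 and 0.26% in PLC/PRF/5. For APOB-Hs2 alone, 2.38% of all genes passed in HUH7 and 0.353% in PLC/PRF/5. In Hepa1-6, which did not receive APOB-Hs2, 0 of 27 passed (background 0.834%), with 2 of 27 under an unadjusted p of 0.05. Of all 21931 genes 2645, 1988 and 3193 were under it with APOB-Hs1, APOB-Hs3 and APOB-Hs4.

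IGFBP1 was bright in PLC/PRF/5, where its mock arrays read 10.79, 10.42 and 9.75 at 6, 12 and 48 h. With APOB-Hs2 the same times read 9.99, 8.38 and 7.51. The APOB-Hs2 array was the lowest of the 8 treatments at each time, and at 12 and 48 h it lay below every array of the line with any other treatment. The fitted difference from mock was -1.69 (SE 0.191, adjusted p = 1.88e-04), a fold of 0.310. Without the widely spread arrays, which include APOB-Hs2 at 48 h, it was -1.52 (0.00138), and without the 12 h arrays -1.52 with an adjusted p of 0.452. In HUH7 the mock arrays read 5.20, 4.33, 4.68 and 4.40 at 6, 12, 24 and 48 h, and with APOB-Hs2 4.49, 3.71, 3.73 and 4.16. Here APOB-Hs2 was the lowest treatment at 6, 12 and 24 h, but not at 48 h, when Apob-Mm2 read 3.67. The difference was -0.63 (SE 0.133, adjusted p = 0.00846), a fold of 0.646. With the RAD18 siRNA as the reference the difference was -0.18 in HUH7 (adjusted p = 0.572) and -1.22 in PLC/PRF/5 (0.00154), so the HUH7 call rests on the 4 mock arrays. It also did not pass without the 12 h arrays (-0.64, 0.0790) or without the 24 h arrays (-0.52, 0.251). HUH7 minus PLC/PRF/5, the response to APOB-Hs2 was 1.17 (SE 0.260, adjusted p = 0.699), and without the 6 h arrays 1.71 (0.0231).

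IGFBP1 also lay below mock with the other siRNAs, without passing the test for any of them. All 21 of 21 siRNA arrays of PLC/PRF/5 were below the mock array of their time, by -2.24 to -0.06 with a median of -0.52. In HUH7 26 of 28 were, with differences from -0.95 to 0.33 and a median of -0.42. These counts share the mock arrays, 3 in PLC/PRF/5 and 4 in HUH7, so they are not independent of each other. Fitted differences other than that of APOB-Hs2 ran from -0.46 (Apob-Mm2, adjusted p = 0.0828) to -0.11 (APOB-Hs4) in HUH7, and from -0.62 (APOB-Hs3, 0.271) to -0.34 in PLC/PRF/5. The mean of all siRNAs minus mock was -0.40 in HUH7 (0.114) and -0.61 in PLC/PRF/5 (0.636). In Hepa1-6 7 of 12 arrays lay below mock, and the fitted differences were -0.20 to -0.10.

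**Figure D2:**
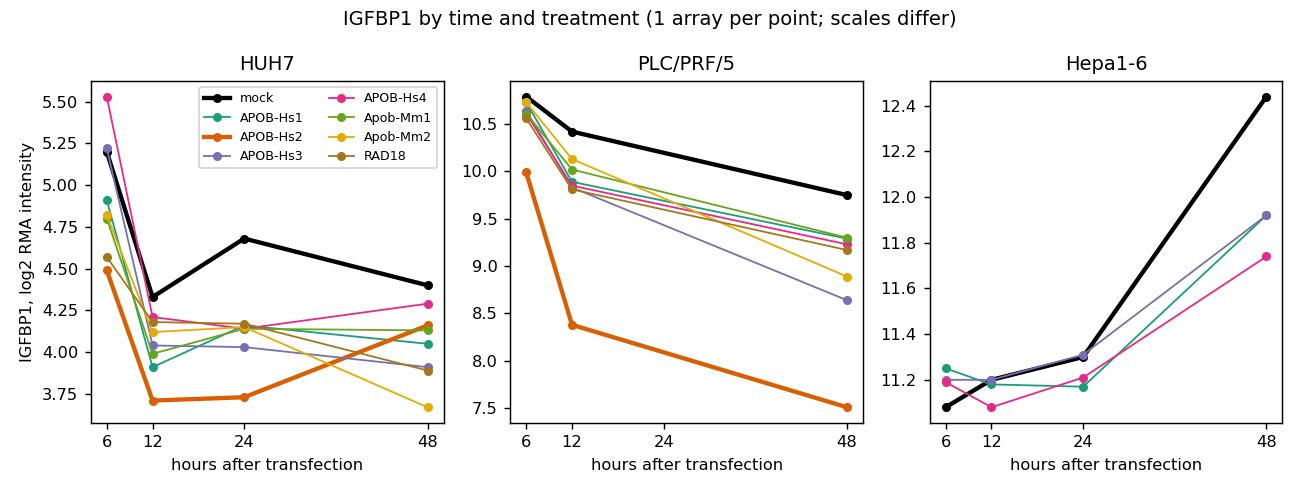
IGFBP1 in each cell line, as log2 RMA intensity (vertical axes, which differ in scale) against hours after transfection; each point is 1 array, with mock in black and APOB-Hs2 in heavy orange. In PLC/PRF/5 APOB-Hs2 reads 7.51 at 48 h against 9.75 in mock, while the 4 Hepa1-6 arrays at 48 h read between 11.74 and 12.44.

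The enzymes of glucose production gave no call with any siRNA. In HUH7 the differences from mock of PCK1, G6PC, FBP1, TAT, PKLR, IRS2 and GYS2 were all within 0.3 of 0, as was PPARGC1A apart from APOB-Hs1. With APOB-Hs1, PPARGC1A read 4.23, 4.31, 4.82 and 5.06 at 6, 12, 24 and 48 h against 4.09, 3.91, 4.29 and 4.52 in mock, higher at each time. That difference was 0.41 (SE 0.116, adjusted p = 0.0575), and 0.50 (adjusted p = 0.00975) without the 6 h arrays. In HUH7 5 of 9 genes had an unadjusted p under 0.05 with Apob-Mm1, though none passed after adjustment. Of all 17836 genes 631 had such a p, and none of those passed either. PLC/PRF/5 spread more at 48 h: PCK1 was 8.41 with APOB-Hs2 and 8.30 with APOB-Hs4 against 7.31 in mock and 6.40 with APOB-Hs3. PPARGC1A at that time was 4.65 with APOB-Hs4, 6.71 with APOB-Hs3 and 6.04 in mock. At 6 h the 8 PCK1 arrays lay between 5.90 and 6.13. The fit averages over times, and none of these differences passed it. Of the enzymes in PLC/PRF/5, G6PC with APOB-Hs3 had the widest difference (-0.65, adjusted p = 0.476).

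Contrasts over several siRNAs gave no call either. Among the 9 genes, 0 passed for the mean of all siRNAs minus mock in HUH7 (background 0.202%), in PLC/PRF/5 (0.00561%) or in Hepa1-6 (0.0365%), with 1, 1 and 0 under an unadjusted p of 0.05. Over all genes 1687 of 17836, 822 of 17836 and 2041 of 21931 were under it. The 4 siRNAs named APOB-Hs minus the other 3 gave 0 of 9 in HUH7, where 3.92% of all genes passed, and 0 of 9 in PLC/PRF/5, where 0.392% did. At an unadjusted p under 0.05 these were 0 and 1, beside 2965 and 1924 of all 17836 genes. No response to an siRNA passed the test of a difference between the human lines (0 of 63, background 0.004%, and 1 unadjusted). The 1 was with APOB-Hs2, where 602 of all 17836 genes were under an unadjusted p of 0.05.

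**Figure D3:**
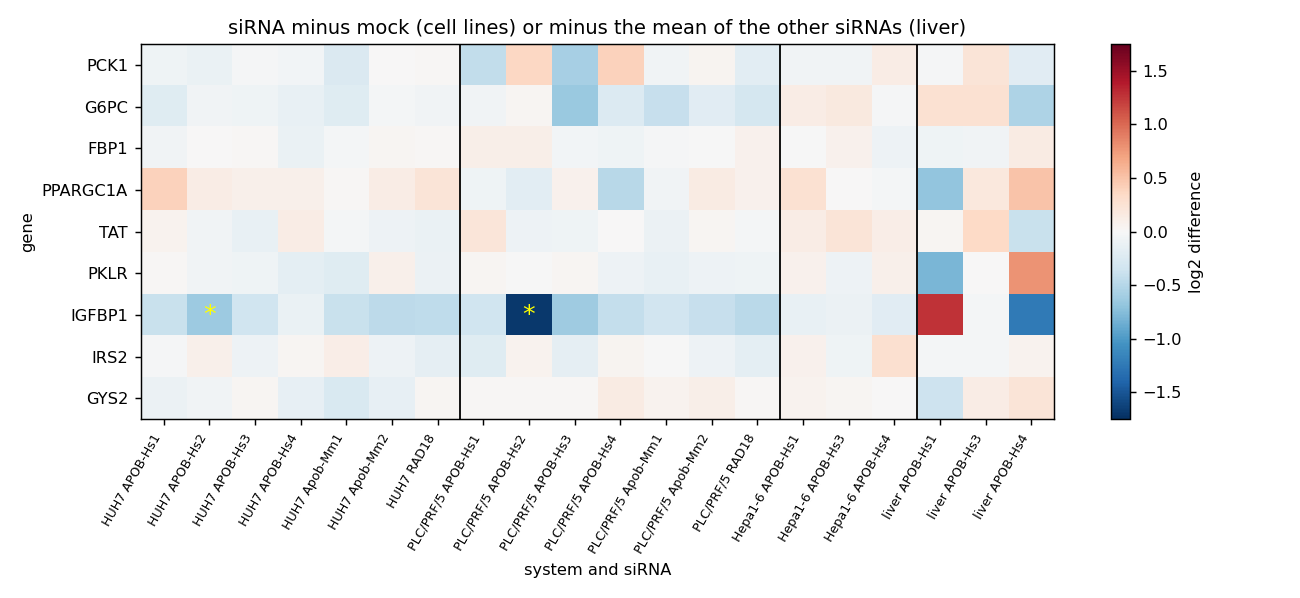
Fitted log2 difference of each gene (rows) for each siRNA in each system (columns), from mock in the cell lines and from the mean of the other siRNAs in liver; red is higher and blue lower, and an asterisk marks an adjusted p under 0.05. The asterisks mark IGFBP1 with APOB-Hs2 at -0.63 in HUH7 and -1.69 in PLC/PRF/5, while the liver columns of IGFBP1, 1.27 and -1.24, carry none.

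More of these genes passed the test for time after transfection than for the siRNAs, as did more of all genes. IGFBP1 passed in each line. The change from 6 to 48 h passed for 4 of 9 genes in HUH7, beside 29.5% of all genes, for 2 of 9 in PLC/PRF/5, beside 18.8%, and for 2 of 9 in Hepa1-6, beside 17%. These changes are averages over mock and siRNA arrays. In PLC/PRF/5 and Hepa1-6 the counts are close to the shares of all genes, and with 9 genes none is read as an excess.

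Among the enzymes, PCK1 rose in PLC/PRF/5. Over the 8 treatments it averaged 6.03 ± 0.08 (SD, n = 8) at 6 h, 6.15 ± 0.27 at 12 h and 7.31 ± 0.74 at 48 h. It was higher at 48 h than at 6 h in 8 of 8 treatments, by 0.46 to 2.32, and mock itself went from 6.09 to 7.31. The change was 1.28 (SE 0.161, adjusted p = 1.56e-05), a fold of 2.43, with 1.16 between 12 and 48 h. It was 0.98 without the widely spread arrays, which held the highest values, and 0.53 (0.00202) on the other probe set. In HUH7 PCK1 averaged 4.44 ± 0.13 and 4.35 ± 0.16 at the same times. G6PC in PLC/PRF/5 differed by 0.32 (SE 0.147, adjusted p = 0.157), with 7.64 and 7.54 at 48 h for APOB-Hs1 and APOB-Hs2 and 6.06 for APOB-Hs3. FBP1 in HUH7 fell by 0.18 (SE 0.052, adjusted p = 0.00821), from 6.43 ± 0.10 to 6.24 ± 0.14, lower in 6 of 8 treatments. PKLR in HUH7 rose by 0.36 from 6 to 12 h (adjusted p = 8.78e-05) and fell by 0.26 from 12 to 24 h (0.00496), so that its change over the whole course did not pass. TAT rose by 0.18 from 12 to 24 h in HUH7 (0.0450). GYS2 passed in no step of any line.

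PPARGC1A rose in HUH7 after 12 h. It averaged 4.01 ± 0.18 (SD, n = 8), 4.09 ± 0.21, 4.50 ± 0.17 and 4.76 ± 0.23 at 6, 12, 24 and 48 h. All 8 treatments were higher at 48 h than at 6 h, by 0.23 to 1.24. The change was 0.75 (SE 0.082, adjusted p = 5.94e-08), with 0.41 from 12 to 24 h and 0.26 from 24 to 48 h both past the test. Of the PLC/PRF/5 treatments 7 of 8 were higher at 48 h, and the exception was APOB-Hs4, at 4.65 on a widely spread array. The change there was 0.26 (adjusted p = 0.328) with all arrays, and 0.54 (0.00102) without the widely spread ones. In Hepa1-6 it rose by 0.28 (SE 0.079, adjusted p = 0.0257), and did not pass without APOB-Hs1 (0.22), without mock (0.23) or on the gene's other probe sets (0.04 and 0.38).

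IGFBP1 fell over time in both human lines and rose in the mouse line. The PLC/PRF/5 arrays averaged 10.58 ± 0.25 (SD, n = 8) at 6 h, 9.79 ± 0.60 at 12 h and 8.97 ± 0.67 at 48 h, a change of -1.61 (SE 0.117, adjusted p = 2.44e-08). It was lower at 48 h in 8 of 8 treatments, by -2.49 to -1.04, with steps of -0.79 and -0.82. In HUH7 the change was -0.88 (SE 0.094, 4.11e-08), lower in 8 of 8 treatments, and the step from 6 to 12 h (4.94 ± 0.35 to 4.06 ± 0.19) was as large. The later steps were 0.09 and -0.09. In Hepa1-6 the 4 treatments averaged 11.18 ± 0.07 (SD, n = 4) at 6 h and 12.01 ± 0.30 at 48 h. That change was 0.83 (SE 0.101, 5.10e-05), higher in 4 of 4 treatments, and 0.76 of it fell between 24 and 48 h. Mock had the widest gap of the 4, from 11.08 to 12.44.

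IRS2 also fell in HUH7. It averaged 8.44 ± 0.10 (SD, n = 8) at 6 h and 7.92 ± 0.18 at 12 h, a step of -0.53 (adjusted p = 7.92e-06), then 8.19 ± 0.19 and 7.99 ± 0.16. From 6 to 48 h it changed by -0.46 (SE 0.073, adjusted p = 1.74e-05), lower in 8 of 8 treatments, and by -0.45 on its other probe set. The first step in PLC/PRF/5 was -0.26 (0.0319), from 9.83 ± 0.05 to 9.57 ± 0.11, and the change to 48 h was -0.11. Without the widely spread arrays that change was -0.20 (0.0151). In Hepa1-6 no step of IRS2 passed.

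**Figure D4:**
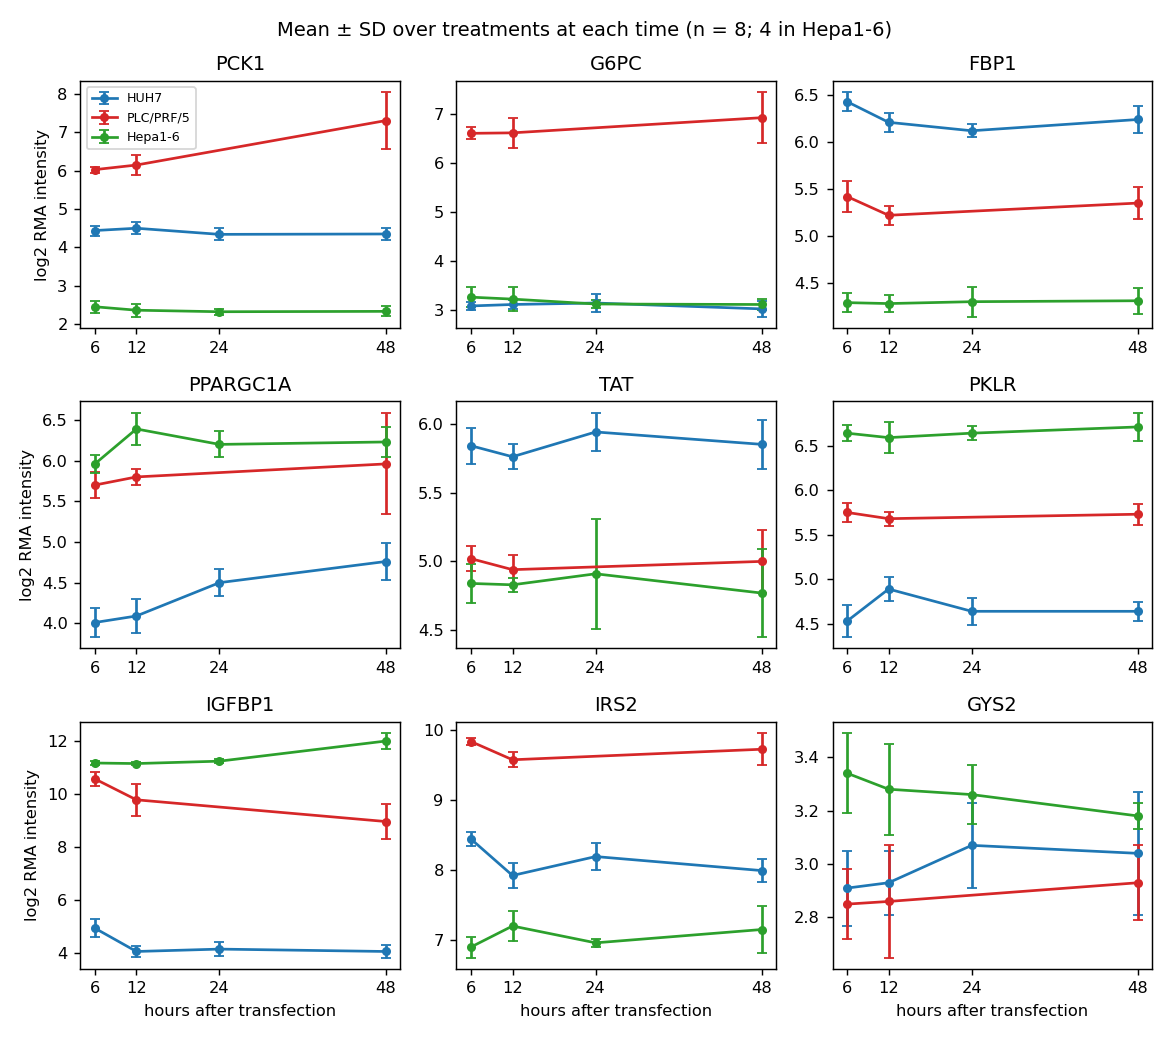
Mean ± SD over treatments of each gene at each time (log2 RMA intensity against hours after transfection), with n = 8 treatments in HUH7 and PLC/PRF/5 and n = 4 in Hepa1-6. IGFBP1 goes down in both human lines and up in Hepa1-6, PCK1 goes up in PLC/PRF/5 with an SD of 0.74 at 48 h, and PPARGC1A goes up in HUH7 from 4.01 to 4.76.

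The change from 6 to 48 h differed between the human lines for 3 of 9 genes, beside 11.7% of all genes. As HUH7 minus PLC/PRF/5, it was -0.62 for PCK1 (SE 0.137, adjusted p = 0.00217), 0.73 for IGFBP1 (SE 0.159, 0.00179) and -0.35 for IRS2 (SE 0.102, 0.0222). For PCK1 this is on the probe set that is brightest over both lines, and it was -1.34 on the other and -0.42 without the widely spread arrays. The IRS2 difference did not pass without APOB-Hs2 (-0.29, 0.101), Apob-Mm1 (0.0540), Apob-Mm2 (0.0614) or RAD18 (0.0519). PPARGC1A differed by 0.49 without passing. Among other genes of glucose and amino acid handling that passed, the change differed most for HAL, a histidine-degrading enzyme (-2.004), SGK1, a glucocorticoid-induced kinase (1.10), and SLC2A2, the hepatic glucose transporter (0.90).

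Hepa1-6 lay far below liver for the gluconeogenic enzymes. FBP1 lay between 13.28 and 13.49 in liver (median 13.35) and between 4.07 and 4.48 in Hepa1-6 (median 4.28). PCK1 lay between 10.73 and 11.57 in liver and between 2.15 and 2.61 in Hepa1-6, G6PC between 10.20 and 11.74 and between 2.97 and 3.60, and TAT between 11.25 and 12.35 and between 4.44 and 5.39. No array of the line came near the liver arrays for these genes. Over the 3 shared siRNAs, Hepa1-6 minus liver was -9.09 for FBP1 (SE 0.046), -8.81 for PCK1 (SE 0.089), -7.89 for G6PC (SE 0.138), -7.02 for TAT (SE 0.106) and -6.43 for GYS2 (SE 0.076). PKLR was also lower in the line (-2.15, SE 0.105). In Hepa1-6 PCK1 lay between the 0.1 and 5.9 percentiles of its arrays, G6PC between 16 and 34.1 and GYS2 between 20.5 and 32, so for these genes too the difference is read as a lower bound on its size. IGFBP1 went the other way, 1.91 higher in Hepa1-6 (SE 0.165, adjusted p = 3.46e-10), with 11.08 to 12.44 in the line and 8.41 to 10.87 in liver. In all 7 of 9 genes passed, beside 83.7% of all genes. IRS2 differed by -0.06 (adjusted p = 0.519), or -0.63 (9.06e-07) after quantile normalization. PPARGC1A differed by -0.17 (0.0559) on its brightest probe set, by -0.61 after quantile normalization, and by 0.52 and 0.67 on its other probe sets, so no direction is given for it. The summed intensity of the measured hepatocyte markers was 3284 to 7635 in Hepa1-6 and 117553 to 122342 in liver. In Hepa1-6 0 of 4 measured periportal markers lay above the median gene, and 4 of 7 pericentral markers did. The part of these markers in the differences was not tested, and in bulk RNA fewer cells of a type and less RNA per cell cannot be told apart.

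In liver no gene passed for any siRNA against the mean of the other 2 (0 of 27, background 0.187%), though 4, 1 and 5 of 9 genes had an unadjusted p under 0.05 for APOB-Hs1, APOB-Hs3 and APOB-Hs4. Of all 21931 genes 2941, 1824 and 2125 had such a p, in the same order. IGFBP1 varied most. It read 10.87, 9.50 and 10.54 in the livers given APOB-Hs1, 9.21, 9.02 and 10.06 with APOB-Hs3, and 8.41, 8.51 and 8.97 with APOB-Hs4. The 3 APOB-Hs4 livers were the lowest of the 9, while APOB-Hs1 and APOB-Hs3 overlapped. The differences were 1.27 for APOB-Hs1 (SE 0.293, adjusted p = 0.1004) and -1.24 for APOB-Hs4 (0.157).

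PPARGC1A and PKLR had lower means with APOB-Hs1 than with APOB-Hs4, the reverse of IGFBP1. PPARGC1A read 5.83, 6.13 and 5.83 with APOB-Hs1, 6.53, 6.43 and 6.58 with APOB-Hs3, and 6.40, 7.01 and 6.76 with APOB-Hs4. All 3 APOB-Hs1 livers lay below the other 6. The difference for APOB-Hs1 was -0.69 (SE 0.125, adjusted p = 0.0537), or -0.77 (adjusted p = 0.00663) without the widely spread liver 1 of APOB-Hs4, and was 0.04 and -0.48 on the other probe sets. Liver 1 of APOB-Hs4 was left out for its residual SD in the same fit, 0.1663 beside 0.1555 for liver 1 of APOB-Hs3. PKLR read 7.82, 8.32 and 8.69 with APOB-Hs1, 8.60, 8.88 and 8.97 with APOB-Hs3, and 8.77, 9.48 and 9.75 with APOB-Hs4. Its differences were -0.80 for APOB-Hs1 (0.154) and 0.79 for APOB-Hs4 (0.226), or -0.94 (0.0284) and 1.07 (0.0441) without liver 1 of APOB-Hs4. Without liver 2 of APOB-Hs1, IGFBP1 passed at 1.67 (0.0248) and PPARGC1A at -0.79 (0.0472). These contrasts share livers, so a high value for 1 siRNA lowers the others.

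No enzyme of glucose production passed in liver. FBP1 was 13.32 ± 0.04 (SD, n = 3), 13.34 ± 0.01 and 13.47 ± 0.03 with APOB-Hs1, APOB-Hs3 and APOB-Hs4, and all 3 APOB-Hs4 livers lay above the other 6, by a difference of 0.14 (adjusted p = 0.496). PCK1 was 11.16 ± 0.39, 11.32 ± 0.40 and 11.05 ± 0.15, G6PC 11.27 ± 0.26, 11.27 ± 0.62 and 10.73 ± 0.59, and TAT 11.92 ± 0.25, 12.13 ± 0.23 and 11.64 ± 0.35. Their groups overlapped. GYS2 was 9.47 ± 0.17, 9.80 ± 0.12 and 9.85 ± 0.35, and its APOB-Hs1 difference of -0.36 (0.289) became -0.46 (0.0409) without liver 1 of APOB-Hs4. In 3 of 27 pairs of gene and siRNA the livers of that siRNA all lay to one side of the other 6, beside 4.78% over all genes. Summed intensities of cell type markers are given in the order APOB-Hs1, APOB-Hs3 and APOB-Hs4. Between APOB-Hs1 and APOB-Hs4 the ranges did not overlap for 6 measured lymphocyte markers (428 to 474, 393 to 514 and 518 to 529) or for 7 pericentral hepatocyte markers (41984 to 43935, 43349 to 46492 and 39598 to 41703). Nor did they for 4 cholangiocyte markers (68 to 89, 54 to 91 and 61 to 65), of which 0 lay above the median gene in liver. Of the lymphocyte markers 2 of 6 did, and of the pericentral markers 7 of 7. Ptprc was the brightest lymphocyte marker (mean log2 8.3) and Cd79a the dimmest (3.37). The ranges overlapped for 3 red blood cell markers (9518 to 14007, 5224 to 10492 and 5234 to 10345) and 7 Kupffer cell markers (1143 to 1757, 1573 to 2259 and 1472 to 1710). They also overlapped for 8 hepatocyte markers (117553 to 122342, 118714 to 122341 and 118542 to 121328) and 4 periportal markers (20655 to 24599, 24392 to 26176 and 24213 to 25947). The ranges of the stellate, liver endothelial and neutrophil markers overlapped as well. No share over all genes was taken for this comparison of 3 livers with 3. The part of the markers in the differences was not tested.

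**Figure D5:**
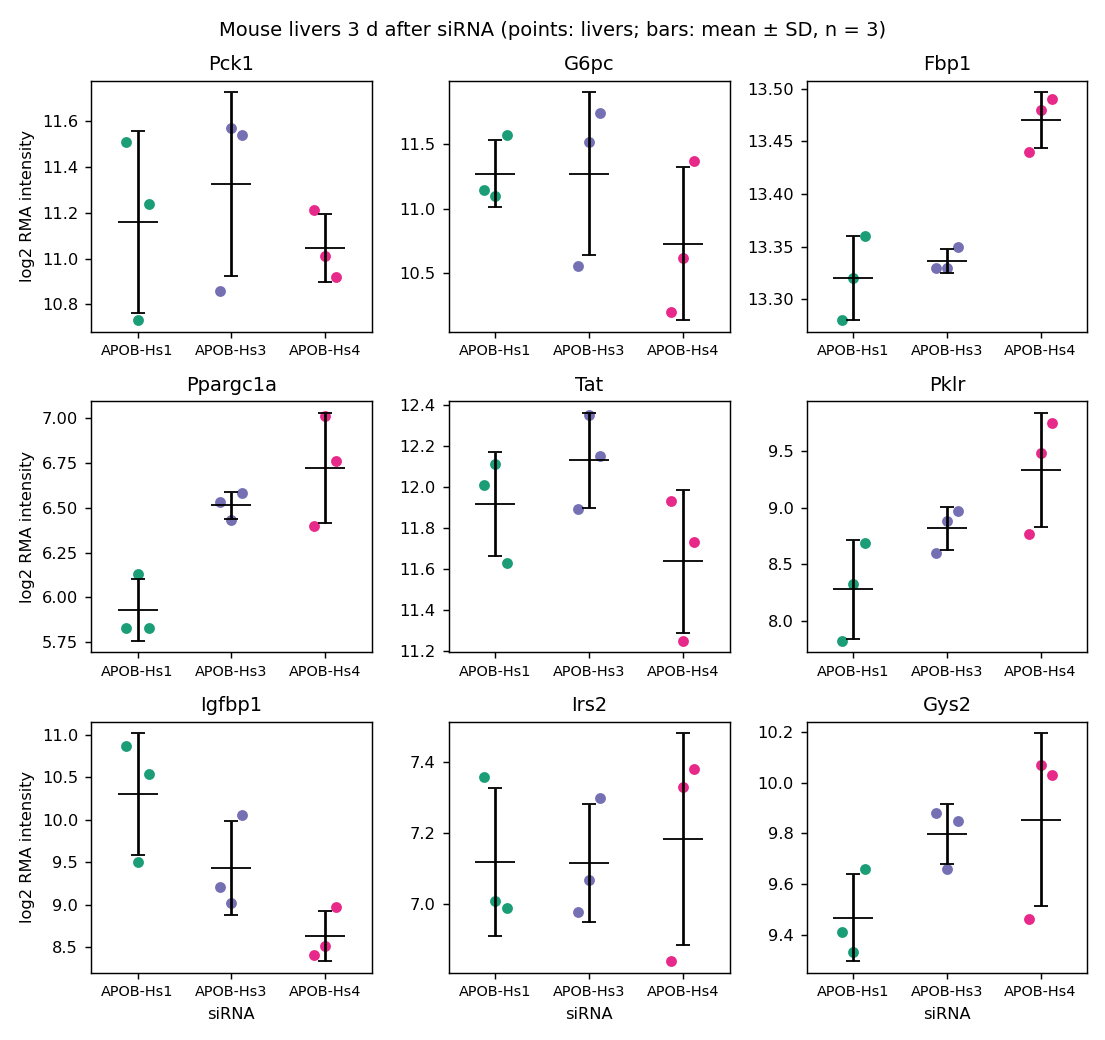
Log2 RMA intensity of each gene in single livers 3 d after siRNA (vertical axes differ in scale); points are livers and bars show the mean ± SD, n = 3. Igfbp1 lies lowest in the 3 APOB-Hs4 livers (8.41 to 8.97) and Ppargc1a lowest in the 3 APOB-Hs1 livers (5.83 to 6.13), while Pck1, G6pc and Tat overlap.

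Wider lists of the pathway were read beside the 9 genes: gluconeogenic enzymes and transporters, glycolysis and sugar sensing, glycogen metabolism, insulin and glucagon signalling with its transcription factors, the axis of insulin-like growth factors, and glucocorticoid-induced genes with amino acid breakdown. Over these 6 lists, 7 tests were higher and 22 lower than mock in HUH7, 3.54% of 819 tests beside 1.57% of all. PLC/PRF/5 had 0 higher and 3 lower, 0.366% of 819 beside 0.26%. In Hepa1-6 1 was higher and 6 lower, 2.08% of 336 beside 0.834%. In liver 0 passed. With APOB-Hs2, the siRNA that lowered IGFBP1, SIK2 was lower in both human lines. SIK2 encodes a salt-inducible kinase, known to restrain the cAMP-responsive coactivators of gluconeogenic genes. The PLC/PRF/5 arrays read 8.61, 8.33 and 8.14 at 6, 12 and 48 h against 9.05, 8.90 and 9.32 in mock, and in HUH7 7.36, 7.29, 7.24 and 7.14 at 6, 12, 24 and 48 h against 7.63, 7.59, 7.68 and 7.86. APOB-Hs2 lay below mock at every time, by -0.73 in PLC/PRF/5 (adjusted p = 0.00415) and -0.43 in HUH7 (0.0158). In HUH7 the same siRNA also lowered HK2, a hexokinase (-0.39), GYG1, glycogenin, the primer of glycogen (-0.38), IGFBP4 (-0.45), TRIB3 (-0.34), CEBPB (-0.34) and PC, pyruvate carboxylase (-0.23), and raised ONECUT1 (0.40) and ZBTB16 (0.38). Several of these also passed in HUH7 with other siRNAs: HK2 with APOB-Hs1 (-0.41) and APOB-Hs3 (-0.30), GYG1 (-0.31) and TRIB3 (-0.27) with APOB-Hs4, and CEBPB with the RAD18 siRNA (-0.29).

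The glucocorticoid receptor gene NR3C1 fell with APOB-Hs3 in all 3 cell lines. In HUH7 it read 9.37, 8.80, 8.85 and 8.18 at 6, 12, 24 and 48 h against 9.56, 9.47, 9.74 and 9.54 in mock. The PLC/PRF/5 arrays read 9.88, 9.67 and 8.99 at 6, 12 and 48 h against 10.40, 10.50 and 10.23, and in Hepa1-6 9.36, 8.96, 8.53 and 8.88 against 9.58, 9.73, 9.66 and 9.26. The differences were -0.78 (adjusted p = 0.00112), -0.87 (0.0327) and -0.63 (0.0193). The RAD18 siRNA also lowered it in HUH7 (-0.74, 0.00192). With that siRNA the PLC/PRF/5 arrays read 9.75, 9.72 and 9.40, below mock at each time, a difference of -0.75 that did not pass (0.0880). APOB-Hs2 gave -0.24 in HUH7 (0.414) and -0.51 in PLC/PRF/5 (0.334), neither past the test. At 48 h its arrays read 8.86 in HUH7 and 9.01 in PLC/PRF/5. TAT, a gene this receptor induces, gave no call with APOB-Hs3 in any system. It lay below mock at 4 of 4 times in HUH7 (-0.22 to -0.08), at 2 of 3 in PLC/PRF/5 and at 1 of 4 in Hepa1-6. Whether TAT followed NR3C1 was not tested. In the 9 livers, which had no mock, NR3C1 lay between 9.88 and 10.26. In Hepa1-6 APOB-Hs3 further lowered PGM1, phosphoglucomutase (-0.76), PFKFB2 (-0.61) and PHKB, a phosphorylase kinase subunit (-0.45), while APOB-Hs4 raised PDK4 (0.56) and lowered FOXA1 (-0.64) and PRKAA2 (-0.46). In HUH7 APOB-Hs4 lowered GHR, the growth hormone receptor (-0.65), and the RAD18 siRNA lowered NR0B2 (-0.58). The remaining call in PLC/PRF/5 was ONECUT1 with APOB-Hs4 (-0.47).

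Over time the gluconeogenic and glycogen lists held more genes that rose than fell. Among gluconeogenic enzymes and transporters beyond the 9 genes, 6 of 18 rose and 0 fell from 6 to 48 h in HUH7 (list median 0.08), 5 rose and 1 fell in PLC/PRF/5 (0.09), and 6 of 17 rose and 0 fell in Hepa1-6 (0.13). Over all genes 16.6% rose and 13% fell in HUH7, 12.1% and 6.72% in PLC/PRF/5, and 8.8% and 8.24% in Hepa1-6, with medians of -0.003, 0.013 and 0.005. GPT2, an alanine aminotransferase that feeds pyruvate to the pathway, rose by 0.31, 0.54 and 0.60 in the 3 lines. PCK2, the mitochondrial form of the carboxykinase, rose by 1.41 in Hepa1-6, where PCK1 stayed between 2.15 and 2.61. SLC2A2 fell by 0.69 with time in PLC/PRF/5. Of glycogen genes 5 rose and 1 fell of 15 in HUH7, 6 and 0 in PLC/PRF/5, and 5 and 1 in Hepa1-6. PPP1R3C, which targets a phosphatase to glycogen, rose by 0.57 in HUH7, 0.57 in PLC/PRF/5 and 1.67 in Hepa1-6. In glycolysis and sugar sensing 5 rose and 1 fell of 19 in HUH7, 9 and 1 in PLC/PRF/5, and 4 and 2 of 18 in Hepa1-6. TXNIP, a glucose-responsive gene, rose by 0.45 in HUH7 and 0.79 in PLC/PRF/5.

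The insulin and glucagon list held transcription factors that rose in both human lines. In HUH7 17 of its 39 genes rose and 6 fell, in PLC/PRF/5 11 and 6, and in Hepa1-6 13 and 3 of 38. The shares of all genes that rose and fell from 6 to 48 h were 16.6% and 13% in HUH7. They were 12.1% and 6.72% in PLC/PRF/5 and 8.8% and 8.24% in Hepa1-6. KLF15, a factor of amino acid and glucose metabolism in fasting, rose by 1.26 in HUH7 and 0.68 in PLC/PRF/5. NR1H4, the bile acid receptor, rose by 0.98 and 0.81. CEBPA, a hepatocyte transcription factor, rose by 0.78 in HUH7. TRIB1 fell by 1.08 in PLC/PRF/5, and TRIB3 rose by 1.13 in Hepa1-6. Of the glucocorticoid-induced list 4 rose and 4 fell of 16 in HUH7, 5 and 4 in PLC/PRF/5, and 2 and 1 of 14 in Hepa1-6. HAL rose by 1.94 in PLC/PRF/5 and SGK1 fell by 0.88 there, while DUSP1 fell by 0.60 in HUH7 and 0.98 in Hepa1-6. In the axis of insulin-like growth factors beyond IGFBP1, 2 rose (IGFBP3 by 0.52 and GHR by 0.48) and 1 fell (IGFBP4 by 0.46) of 10 in HUH7, and none passed in the other lines. In HUH7 29.5% of all genes passed, about the share of this list.

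Levels of the wider lists also separated the human lines. HUH7 minus PLC/PRF/5 was -6.53 for SLC2A2, -6.25 for LDHB, lactate dehydrogenase B, and -5.10 for PDK4, a pyruvate dehydrogenase kinase. It was 5.58 for IGF2, 4.89 for NR1H4, 4.04 for HK2 and 2.72 for PC. Of gluconeogenic genes 7 were higher in HUH7 and 10 lower of 18, of glycolytic genes 3 and 15 of 19, and of the insulin-like growth factor axis 9 and 1 of 10, beside 36.1% and 49.2% of all genes. Hepa1-6 minus liver was -8.69 for SLC2A2, -8.27 for PYGL, the liver glycogen phosphorylase, and -10.54 for TDO2, tryptophan dioxygenase. PCK2 was 3.04 higher in the line. The gluconeogenic list held 8 higher and 8 lower of 17 and the glucocorticoid list 2 and 11 of 14, beside 56.5% and 27.2% of all genes.

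For genes whose level ranged over more than 1 log2 unit in a system, the 3 genes with the most similar pattern across arrays are given as a description, since all points share treatments and times. In PLC/PRF/5 (24 arrays) PCK1 ran most like DBP (Pearson r 0.958), INTS5 (0.928) and MRPL28 (0.926), G6PC like ANG (0.834), ISG15 and IRF9, PPARGC1A like FANCD2 (0.898), SUV39H2 and PRMT1, and IGFBP1 like SEC24A (0.866), MAP1LC3B and GLDC. In HUH7 (32 arrays) IGFBP1 ran most like HCAR2 (0.898), TRIB1 (0.815) and ZC3H12A (0.808), PPARGC1A like ZNF57 (0.907), EXOSC1 and MCCC1, and IRS2 like PROSER2 (0.834), MARCHF3 and CSNK1G3. In Hepa1-6 (16 arrays) Igfbp1 ran most like Trf (0.959), Tpi1 (0.959) and Pfkp (0.953). Over the 9 livers Ppargc1a ran most like Ttc7 (0.990), Pklr like Dak (0.983), Igfbp1 like Foxl1 (0.939), Tat like Samd1 (0.946) and G6pc like Twistnb (0.934).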

How the data were processed

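Per the submitters' processing notes, the authors summarised the arrays with RMA (robust multi-array average), and the deposited tables hold 1 intensity per probe set on a linear scale. Neither the RMA version nor a genome build is given in the sources used here. Log2 was taken of the deposited intensity here. Array medians were 31.75 to 35.39 for human and 19.73 to 22.55 for mouse arrays, and precision is limited by how many arrays there are. Of 43483 human probe sets 17564 had no gene name, as had 13339 of 43681 mouse probe sets, and these were left out.

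All named genes, each on its brightest probe set, entered linear models in limma 3.58.1 (R 4.3.3). Terms were treatment and time within a line, their interaction with line for the 48 human arrays at 6, 12 and 48 h, siRNA in liver, and system by siRNA for Hepa1-6 against liver. P-values were adjusted by Benjamini-Hochberg within each contrast and called under 0.05. Mock was 1 array per time, shared by all siRNA contrasts of a line. Genes named were the 9 members, APOB and RAD18, up to 4 genes past the test per list and contrast by size of change, and, for members with a range over 1 on the log2 scale, the 3 genes of highest correlation. SIK2 and NR3C1 are given array by array because they passed with the same siRNA in more than 1 line, a choice made after their values were seen. The members, lists and rules were chosen with earlier results of these data known. The palindrome was added to the motif search after the G6PC1 promoter had been read. On simulated data with a change of 1 log2 unit, the fits recovered 99.5% of changed genes for APOB-Hs1 in HUH7, 99% in PLC/PRF/5 and 97.5% in liver. The simulated noise was independent between arrays, and the change in a line was the same at every time. These shares therefore do not apply to smaller changes or to changes that vary with time, and a gene without a call may still have changed. Alternatives covered normalization, probe set choice, a filter on dim genes, variance trend, the reference, single times, treatments and livers, and the liver replicate number as a block. Testing each probe set was added after seeing the data.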

Additional observations from a re-analysis of the deposited data

Results flagged for a closer look

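In HUH7 and Hepa1-6 each treatment had 4 times, and after the mean of each time point was removed, 108 such sets of 4 values of a gene were searched for 1 value far from the rest. It was found in 3 of them, and chance gives about 1 in 20. G6PC1 in HUH7 with Apob-Mm1 lay -0.23 from the mean of its time point at 24 h. IRS2 in HUH7 lay -0.42 from it with APOB-Hs1 at 12 h, on an array of wide residual spread, and -0.22 with Apob-Mm2 at 24 h.

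The change from 6 to 48 h differed between HUH7 and PLC/PRF/5, by the test of the difference itself, for PCK1 (-0.62), IGFBP1 (0.73) and IRS2 (-0.35). For IGFBP1 every treatment of the human lines went down from 6 to 48 h and every treatment of Hepa1-6 went up. The gap in that change was -1.71 for HUH7 minus Hepa1-6 and -2.44 for PLC/PRF/5 minus Hepa1-6, and it was not tested, since the species were read on different arrays.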

How the results depend on the processing

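Of the alternatives for single genes, 325 kept a call with its direction, 32 gained a call, 13 lost one and 3 turned sign with a call in either setting. A further 2525 had no call in either setting and kept their sign, and 298 had none and turned sign, among them IRS2 in Hepa1-6 from 6 to 48 h (0.26 and, on another probe set, -0.29). The 3 with a call were PPARGC1A in Hepa1-6 minus liver, at 0.521 and 0.665 on other probe sets and 0.338 on the mean of all. Keeping the brighter 0.5 of genes left fewer members to test: 2 calls of 2 for HUH7 minus PLC/PRF/5, 1 of 1 for 48 minus 6 h in HUH7 and 1 of 3 in PLC/PRF/5, 0 of 7 for siRNAs in HUH7, and 1 in liver. With the RAD18 siRNA as reference 0 of 54 passed in HUH7, where IGFBP1 with APOB-Hs2 was -0.181, and 1 of 54 in PLC/PRF/5. Without the widely spread arrays 4 genes passed for 48 minus 6 h in PLC/PRF/5 and 5 tests in liver, and a variance trend gave 1 in liver. No share over all genes was taken for these settings. The mean of all probe sets gave 1 for 48 minus 6 h in Hepa1-6. Leaving out 1 time, treatment or liver gave 0 to 3 siRNA calls in HUH7, 0 to 1 in PLC/PRF/5, 0 to 1 for the siRNAs named APOB-Hs against the others there, 0 to 1 for responses between lines, 1 to 2 for 48 minus 6 h in Hepa1-6 and 0 to 5 in liver. The cause was not tested. With the liver replicate number as a block 4 of 27 tests passed. No share over all genes was taken for this setting or for the mean of all probe sets. None was taken either with 1 time, treatment or liver left out. Same-numbered livers correlated at -0.148 to 0.19 in their deviations and 3 of 9 pairs exceeded 0.1, against -0.159 to 0.204 for other pairs, so the numbers were not taken to pair livers. Quantile normalization moved the all-gene median of Hepa1-6 minus liver by -0.172. Low levels, such as G6PC in HUH7 and PCK1 in Hepa1-6, limit what a fall could show.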
